A study of Mus musculus with 82 samples.

Results

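Accessible chromatin was compared at day 7 of reprogramming between fibroblasts given RNase H1(D209N), called D209N below, and fibroblasts given Flag. A peak was called shared where it had at least 1 bp in common with a peak of the other day 7 list, and one-list where it had none. On chromosomes 1 to 19, X and Y the Flag list held 42439 peaks and the D209N list 40452. Together they covered 47791 separate regions, of 55274 in all 4 ATAC-seq lists of the series. Of the 47791 regions, 34628 (72.5%) were shared, 7520 (15.7%) were in the Flag list only and 5643 (11.8%) were in the D209N list only.

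Both groups were OG2-MEFs, mouse embryonic fibroblasts that carry an Oct4-driven green fluorescent reporter, infected with retroviral OSKM (Oct4, Sox2, Klf4 and c-Myc). The OSKM-FLAG group received Flag and the OSKM-D209N group overexpressed RNase H1(D209N), also by retrovirus. Each group had 2 ATAC-seq replicates at day 7 and 1 deposited peak list, which leaves no replicate error to give and no test to run between the groups. Every peak name in both lists carries the tag rep1, so a list may rest on replicate 1 alone, and how the lists were made from the replicates is not given in the sources used here. The labels' protocol names 2 media after infection and does not say which was used for these libraries. The cells were a bulk population in which each cell may have taken up a different set of viruses, so more cells with an open site and more opening per cell cannot be told apart. Read depth is unknown, since the lists carry coordinates and names but no score or read count. A site missing from a list may therefore be accessible below the calling threshold. Intervals in parentheses are 95% Wilson intervals and cover counting error only.

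ATAC-seq uses a transposase that inserts sequencing adapters preferentially where DNA is not wrapped in nucleosomes, so a peak marks a stretch of open chromatin such as an active promoter or enhancer. R-loops are RNA:DNA hybrids with a displaced DNA strand, and they form mostly where RNA is being transcribed. RNase H1 removes them by cutting the RNA of the hybrid, and the D209N form binds the hybrid with its catalytic activity lost. During reprogramming, fibroblast enhancers and promoters close while epithelial and then pluripotency elements open.

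Sequences are shown first for promoters in which a one-list peak reached the stretch before the start site, because they show which bases were listed as open in 1 group. Shown are members of the gene lists used below, with Col24a1 added for the widest Flag-only peak. They are a small selection, since 391 promoter windows of coding genes were Flag only and 257 D209N only. Their division between the groups is therefore no result. The windows are the 250 bases before a start site in RefSeq's promoter table (GRCm38.p6), 5′ to 3′ on the gene's strand, and capitals mark the bases inside the one-list peak. Zfp42 (chr8:43307010-43307259, minus strand), which encodes a zinc-finger protein used as a marker of pluripotent cells, had 177 of these bases in a D209N-only peak. Col3a1 (chr1:45311288-45311537, plus strand) and Col6a1 (chr10:76726045-76726294, minus strand) encode fibroblast collagens and had 61 and 186 bases in D209N-only peaks. Neurod1 (chr2:79456637-79456886, minus strand), a neuronal differentiation factor, had 161 bases in a D209N-only peak. Col24a1 (chr3:145292222-145292471, plus strand), a fibrillar collagen gene, had 51 bases in the widest Flag-only peak.
Zfp42: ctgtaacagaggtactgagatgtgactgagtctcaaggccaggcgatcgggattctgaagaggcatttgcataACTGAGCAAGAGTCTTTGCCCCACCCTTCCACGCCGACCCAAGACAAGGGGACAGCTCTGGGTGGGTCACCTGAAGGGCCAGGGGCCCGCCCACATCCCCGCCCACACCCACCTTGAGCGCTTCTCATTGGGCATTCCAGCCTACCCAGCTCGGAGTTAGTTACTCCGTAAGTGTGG
Col3a1: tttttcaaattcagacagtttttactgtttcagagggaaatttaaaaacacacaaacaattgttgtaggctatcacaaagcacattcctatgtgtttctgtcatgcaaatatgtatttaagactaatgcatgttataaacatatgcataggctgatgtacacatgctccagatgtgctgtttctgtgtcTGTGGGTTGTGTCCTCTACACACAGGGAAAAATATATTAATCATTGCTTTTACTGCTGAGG
Col6a1: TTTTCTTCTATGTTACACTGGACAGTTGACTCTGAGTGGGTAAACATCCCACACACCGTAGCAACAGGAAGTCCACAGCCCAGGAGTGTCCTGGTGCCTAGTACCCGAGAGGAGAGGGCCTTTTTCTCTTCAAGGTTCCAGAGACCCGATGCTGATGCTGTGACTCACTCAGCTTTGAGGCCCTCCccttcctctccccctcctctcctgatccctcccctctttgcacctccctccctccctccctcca
Neurod1: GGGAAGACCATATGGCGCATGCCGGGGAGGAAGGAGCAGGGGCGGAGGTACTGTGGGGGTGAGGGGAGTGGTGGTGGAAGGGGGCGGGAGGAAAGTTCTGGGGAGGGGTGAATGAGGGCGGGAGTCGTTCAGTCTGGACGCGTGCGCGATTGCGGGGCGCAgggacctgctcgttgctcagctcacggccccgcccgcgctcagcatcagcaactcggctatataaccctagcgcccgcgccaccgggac
Col24a1: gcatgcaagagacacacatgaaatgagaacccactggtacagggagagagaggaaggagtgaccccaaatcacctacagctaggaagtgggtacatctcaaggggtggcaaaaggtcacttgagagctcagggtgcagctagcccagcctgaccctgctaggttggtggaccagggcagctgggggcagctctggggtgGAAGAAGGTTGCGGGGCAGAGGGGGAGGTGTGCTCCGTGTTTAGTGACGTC
The Zfp42 window had 58.4% GC and 9 CpG, and the letters GGGCGGG, which SP factors bind, occurred 2 times within its peak bases on either strand. The octamer letters ATGCAAA occurred 1 time in that window, outside the peak bases. The Col6a1 window held the AP-1 letters TGANTCA 1 time, within the peak bases. The Neurod1 window held GGGCGGG 3 times, of which 2 lay within the peak bases. The Col3a1 window had 35.2% GC and no CpG, with ATGCAAA 1 time outside the peak bases. A match of letters is a description and does not show that a factor was bound.

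Seen from each list, 34919 of the Flag peaks (82.3%) and 34809 of the D209N peaks (86.1%) were shared, which leaves 17.7% and 13.9% in one list. Sharing depended strongly on peak width. When the peaks of both lists were divided at their common quartiles of 300, 476 and 734 bp, the shared part of the Flag list was 51.3%, 83.2%, 97.5% and 99.89% from the narrowest to the widest class. In the D209N list it was 59.1%, 85.5%, 97.3% and 99.69%. Shared peaks had a median width of 535 bp in Flag and 545 bp in D209N. Flag-only peaks had a median of 247 bp (quartiles 207 and 308) and D209N-only peaks 253 bp (206 and 325). Peaks under 100 bp made up 5.31% of Flag-only and 6.75% of D209N-only peaks, against 0.59% and 0.517% of the shared peaks. One-list peaks therefore held only 8.51% of the base pairs under Flag peaks and 6.68% of those under D209N peaks.

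**Figure D1:**
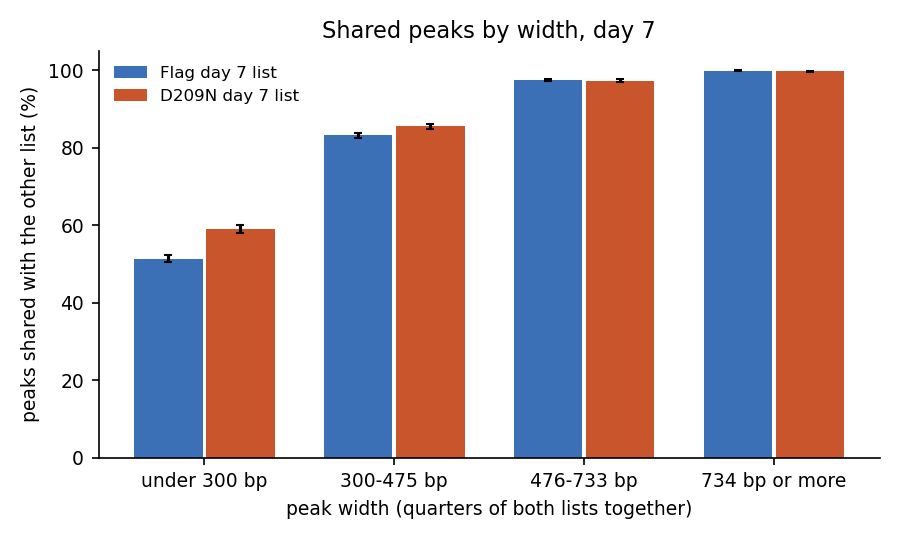
Share of peaks (%) of each day 7 list that had at least 1 bp in common with the other list, by class of peak width in bp. Bars are the Flag and D209N lists with 95% Wilson intervals. The share rises from 51.3% in Flag and 59.1% in D209N among the narrowest peaks to above 99% in both among the widest.

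The balance of the groups turned with width. In the narrowest class 5450 Flag-only peaks stood against 3865 D209N-only peaks, a ratio of 1.41, and in the next class 1797 against 1466, a ratio of 1.23. In the third class the numbers were 262 and 279. In the widest class there were 11 Flag-only and 33 D209N-only peaks, a ratio of 0.333 (0.171 to 0.651). Between genes, none of 649 Flag peaks of the widest class was one-list, against 10 of 770 D209N peaks. At gene ends the widest class had 7 one-list peaks of 7742 in Flag and 5 of 7837 in D209N. The excess of Flag-only peaks was thus found in the 2 narrower classes. Over all widths the ratio was 1.33 (1.29 to 1.38), and among the widest peaks of each list, taken to the length of the shorter list, it was 0.991. Lists of equal length with nearly equal numbers of shared peaks must give a ratio near 1, so 0.991 does not bear on the excess. With only peaks above the median width kept in both lists the ratio was 0.876, over 2704 and 3088 peaks. That count includes peaks whose partner in the other list was narrower than the cut. With the width asked only of the holding list, 269 and 309 peaks were one-list, a ratio of 0.871.

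Few peaks lay close to the boundary of the 1 bp rule. Of the shared peaks, 244 in Flag and 232 in D209N had 50 bp or less in common with the other list. Of the one-list peaks, 85 in Flag and 83 in D209N lay within 50 bp of a peak of the other list. The median distance of a one-list peak to the other list was 9.94 kb in Flag and 10.4 kb in D209N.

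The names of the peaks carry ascending serial numbers with gaps, and the gaps were measured beside each class. The Flag list holds 42259 of 53838 numbers (78.5%) and the D209N list 40287 of 55198 (73.0%). Of the Flag-only peaks, 73.6% (72.6 to 74.6) lay between neighbouring D209N peaks whose numbers skipped at least 1, and of the D209N-only peaks 62.7% (61.5 to 64.0) lay at such a skip in the Flag list. Among stretches of 10 to 50 kb, a number was missing from the D209N list at 63.3% of those with 1 Flag-only peak and at 19.1% of those with none. The matching values in the Flag list were 51.3% and 16.8%. Where the other list skipped no number, 1980 Flag-only and 2100 D209N-only peaks remained, a ratio of 0.943 (0.887 to 1.00). Where it did, the ratio was 1.57. What the missing numbers stand for is not given in the sources used here, and their part in the one-list classes was not tested.

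Shared and one-list peaks lay at different places relative to genes. A gene end here is the stretch within 1 kb of either outer end of a gene of any type, since the gene table used gives no strand. Of the shared Flag peaks 42.1% (41.6 to 42.6) lay at a gene end, against 16.2% (15.4 to 17.1) of Flag-only and 14.3% (13.4 to 15.3) of D209N-only peaks. One-list peaks lay mostly inside genes, 53.2% in Flag and 52.1% in D209N, against 36.6% of shared peaks. Between genes lay 21.3% of shared, 30.5% of Flag-only and 33.5% of D209N-only peaks. Width moves with this difference. Among Flag peaks of the narrowest class, 52.1% (49.75 to 54.4) of those at gene ends and 52.7% (51.0 to 54.3) of those between genes were shared. In D209N those shares were 62.6% (60.04 to 65.0) and 58.2% (56.5 to 59.96). Within the next 2 width classes gene ends had the larger shared part. In the second class it was 86.0% (84.5 to 87.4) at gene ends and 84.2% (82.9 to 85.4) between genes in Flag, and 90.2% (88.8 to 91.4) and 84.2% (82.9 to 85.4) in D209N. In the third class it was 98.4% (98.0 to 98.7) and 96.8% (95.9 to 97.4) in Flag, and 98.7% (98.3 to 99.0) and 96.1% (95.3 to 96.9) in D209N. In the widest class it was 99.91% (99.81 to 99.96) and 100% (99.4 to 100) in Flag, and 99.94% (99.85 to 99.97) and 98.7% (97.6 to 99.3) in D209N. Position and sharing thus moved together beyond counting error in every width class of D209N and in the third class of Flag. In the other width classes of Flag the intervals overlapped.

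**Figure D2:**
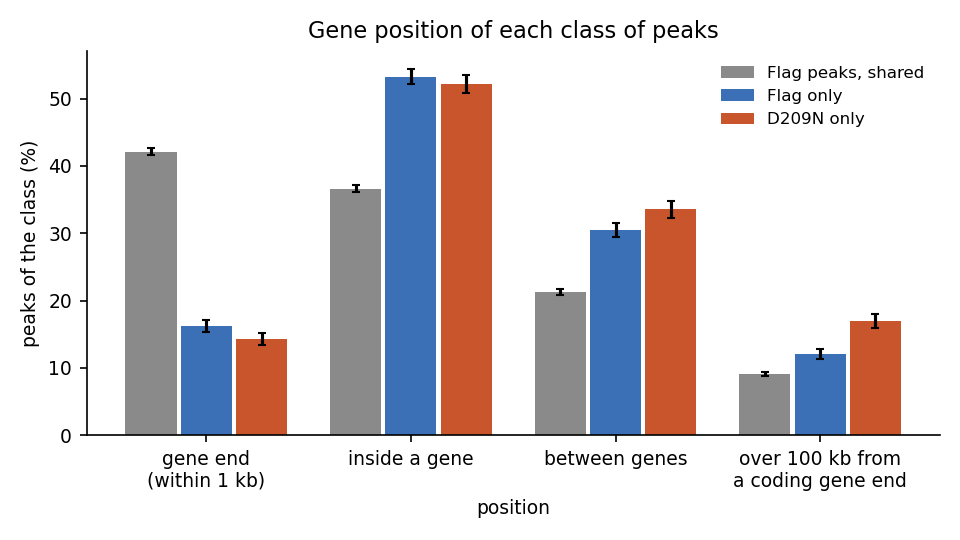
Share of the peaks of each class (%) at a gene end, inside a gene, between genes, and, as a separate count, over 100 kb from any coding gene end. Bars are shared Flag peaks, Flag-only peaks and D209N-only peaks with 95% Wilson intervals. Gene ends hold 42.1% of shared peaks and 16.2% and 14.3% of the one-list classes.

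D209N-only peaks lay farther from coding genes than Flag-only peaks. The median distance from a peak centre to the nearest coding gene end was 6.62 kb for shared Flag peaks, 16.9 kb for Flag-only and 22.2 kb for D209N-only peaks. Over 100 kb from any coding gene end lay 12.1% (11.4 to 12.9) of Flag-only and 16.9% (16.0 to 17.9) of D209N-only peaks. The ratio of Flag-only to D209N-only peaks was 1.71 (1.52 to 1.94) within 1 kb of a coding gene end, with 692 against 404 peaks. It was 1.47 (1.38 to 1.58) between 1 and 10 kb, 1.41 (1.33 to 1.49) between 10 and 50 kb and 1.14 (1.03 to 1.26) between 50 and 100 kb. From 100 to 500 kb it was 0.971 (0.883 to 1.07), and beyond 500 kb 0.772 (0.567 to 1.05), with 71 against 92 peaks. The gradient was therefore larger than counting error from the nearest to the 100 to 500 kb class, while replicate error could not be measured. Among one-list peaks with no missing number in the other list, 9.44% of Flag-only and 13.9% of D209N-only peaks lay over 100 kb away. Among one-list peaks above the median width the shares were 13.8% and 16.5%, with overlapping intervals over 269 and 309 peaks.

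**Figure D3:**
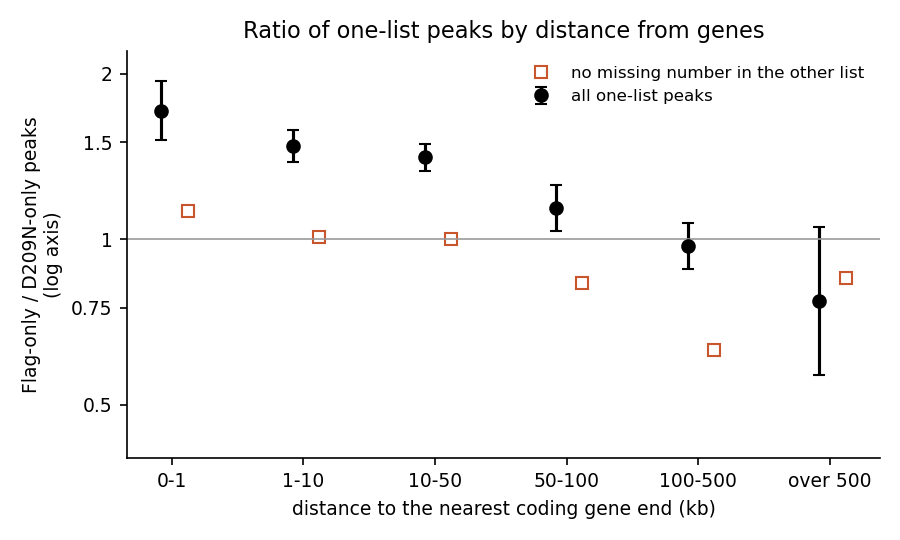
Number of Flag-only peaks divided by number of D209N-only peaks (log axis) by distance in kb from the nearest coding gene end. Filled points are all one-list peaks with 95% Wilson intervals, and open squares are those with no missing number in the other list. The filled points fall from 1.71 within 1 kb to 0.772 beyond 500 kb.

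List size and the balance of one-list peaks were read by chromosome. The D209N list held between 0.932 (chromosome 7) and 0.972 (chromosome 2) times as many peaks as the Flag list over the autosomes and X. Flag-only peaks made up 16.6% (chromosome 3) to 20.8% (chromosome 18) of the Flag list on the autosomes and 15.5% on X. D209N-only peaks made up 11.7% (chromosome 7) to 16.1% (chromosome 18) of the D209N list on the autosomes and 12.9% on X. The ratio of Flag-only to D209N-only peaks ran from 1.18 (chromosome 4) to 1.60 (chromosome 7), with a median of 1.30. Shared peaks were nearly equal in number in the lists, with 34919 in Flag and 34809 in D209N. A small difference in list size therefore appears as a larger one in this ratio. No counting intervals were computed by chromosome.

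Where both lists had a single peak at a site, the peaks were of nearly equal width. There were 34177 such pairs, and the median log2 ratio of D209N to Flag width was 0.01, with quartiles of −0.18 and 0.20. At gene ends 189 pairs were at least 2-fold wider in D209N and 188 in Flag. Inside genes the numbers were 490 and 388, and between genes 298 and 210. Among coding gene ends with at least 300 bp in both lists, the pairs most in favour of Flag lay at Ank1, an erythrocyte membrane adaptor, with 1164 bp in Flag and 380 bp in D209N, and at Eva1a with 1100 and 389 bp. Ccnd2, a cyclin of the G1 phase, had 899 and 334 bp, Epha2, an ephrin receptor, 1037 and 411 bp, and Gm10499 1093 and 461 bp. The pairs most in favour of D209N lay within 1 kb of an end of both Zic1 and Zic4, neural zinc-finger factors, with 362 bp in Flag and 1026 bp in D209N, and at 1700001P01Rik with 330 and 895 bp. Aebp1, a matrix protein gene, had 355 and 958 bp, Ocln, which encodes a tight junction protein, 318 and 852 bp, and Acat3 308 and 770 bp.

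By gene, 13006 of 21883 coding genes (59.4%) had a gene-end peak in both lists and 8222 in neither. A gene-end peak was in the Flag list only for 442 genes (2.02%) and in the D209N list only for 213 (0.973%), together 2.99%. The ratio was 2.08 (1.76 to 2.44), and it was 2.296 with 411 against 179 genes when genes whose window only cut the edge of a shared peak were left out. Peaks of width above the median in both lists gave 480 and 449 genes. Those counts include genes whose peak in the other list was narrower than the cut, so they are not genes without any such peak. Flag-only peaks at coding gene ends with no missing number in the D209N list numbered 221, against 192 the other way, a ratio of 1.15 (0.949 to 1.40). These genes had narrow peaks, with medians of 281.5 bp in Flag and 288 bp in D209N. Of the 442 Flag-only genes 364 had no gene-end peak in either day 3 list, and of the 213 D209N-only genes 153.

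The markers of the cells were checked first. The loci of all 4 delivered factors had gene-end peaks in both lists, with 3 assigned peaks in each list for Pou5f1 and 4 in each for Klf4. Myc had 7 in Flag and 6 in D209N, and Sox2 6 and 5. An assigned peak is one whose centre lies within 100 kb of a coding gene end and nearest to that gene. Peaks on the delivered genes' exons and peaks from viral copies cannot be told apart. Of 24 mesenchymal genes 18 had a gene-end peak in both lists, among them Vim, Twist1, Snai2 and Zeb1. Thy1, the fibroblast surface marker, had 4 assigned peaks in each list but none at a gene end, and Pdgfra had 3 in Flag and 1 in D209N, also with none at a gene end. Of markers of other cell types, 3 of 8 endothelial, 3 of 8 macrophage and blood, 3 of 7 muscle and 2 of 6 keratinocyte genes had a gene-end peak in both lists, and none of them in one list. Endoderm markers had one in both lists for 4 of 9 genes, trophoblast markers for 2 of 7 and neural markers for 8 of 12. A further neural marker had one in D209N only. Over all coding genes 59.4% had a gene-end peak in both lists, the background for these counts and for the mesenchymal genes. The endothelial markers with one in both lists were Kdr, Tek and Erg, and the macrophage and blood markers Cd68, Spi1 and Cd14. The muscle markers were Myod1, Actc1 and Ckm, and the keratinocyte markers Krt1 and Krt10. The other endothelial markers, Pecam1 and Cdh5 among them, had no gene-end peak in either list. Pecam1 still had 6 assigned peaks in Flag and 5 in D209N, and Cdh5 7 in each.

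Pluripotency genes numbered 35, of which 13 had a gene-end peak in both lists, 2 in Flag only, 3 in D209N only and 17 in neither. Against the 2.02% and 0.973% of all coding genes these are counts of few genes. Among the regulators of the naive state, Zfp42 had a D209N-only peak of 208 bp (chr8:43306979-43307186), centred 74 bp before its listed start site and present in both day 3 lists. Prdm14, a regulator of germ cells and pluripotency, had a Flag-only peak of 67 bp, and a 500 bp window removed it from the class. Nodal, a ligand of the TGF-beta family, had a Flag-only peak of 269 bp (chr10:61418284-61418552), 446 bp after its start site and absent from both day 3 lists. Eras, a Ras-like protein of embryonic stem cells, had a D209N-only peak of 42 bp, 303 bp after its start site. Dnmt3l, a partner of the DNA methyltransferases, counted as D209N only through the edge of a shared peak of 544 bp. Sall4, Utf1, Fgf4 and Tfcp2l1 had a gene-end peak in both lists, and Nanog, Esrrb, Dppa5a and Lin28a in neither. Assigned one-list peaks of the 35 genes numbered 8 in Flag and 6 in D209N.

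Epithelial genes numbered 39, of which 28 had a gene-end peak in both lists, 1 in each list only and 9 in neither. The background over all coding genes was 2.02% in Flag only and 0.973% in D209N only. Krt19, a simple keratin, had a D209N-only peak of 225 bp (chr11:100146075-100146299), with the nearest Flag peak 22.7 kb away. Tjp3, a tight junction scaffold, counted as Flag only through the edge of a shared peak of 885 bp. Assigned one-list peaks divided into 25 in Flag and 16 in D209N over the 39 genes, which are 23.8% and 16.8% of the peaks assigned to them, against 17.2% and 12.9% over all coding genes. More Flag-only peaks were held by 13 of the genes, more D209N-only peaks by 6, and 20 were equal. Cdh1, which encodes E-cadherin, the adhesion protein of epithelia, had 2 shared peaks, 4 D209N-only peaks and no Flag-only peak. Cdh3, which encodes P-cadherin and lies on the same chromosome, had 3 Flag-only peaks and no D209N-only peak. Krt18 and Grhl1, a keratin and an epithelial transcription factor, also had 3 Flag-only peaks each and no D209N-only peak.

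The Cdh1 locus was read peak by peak. The shared peak at the gene end had 608 bp in Flag (chr8:106603272-106603879) and 488 bp in D209N, and the other shared peak, 16.4 kb into the gene, had 573 and 576 bp. The D209N-only peaks were 66 bp (chr8:106626258-106626323), 205 bp (chr8:106631798-106632002), 486 bp (chr8:106632453-106632938) and 232 bp (chr8:106647387-106647618), all inside the gene. The second and the third of these were also in the Flag day 3 list, and none was in the D209N day 3 list. All 4 lay at a stretch where the Flag day 7 list skipped a number. Within 20 kb of a gene end the net count at Cdh1 was 0, since all 4 lie deeper in the gene.

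**Figure D4:**
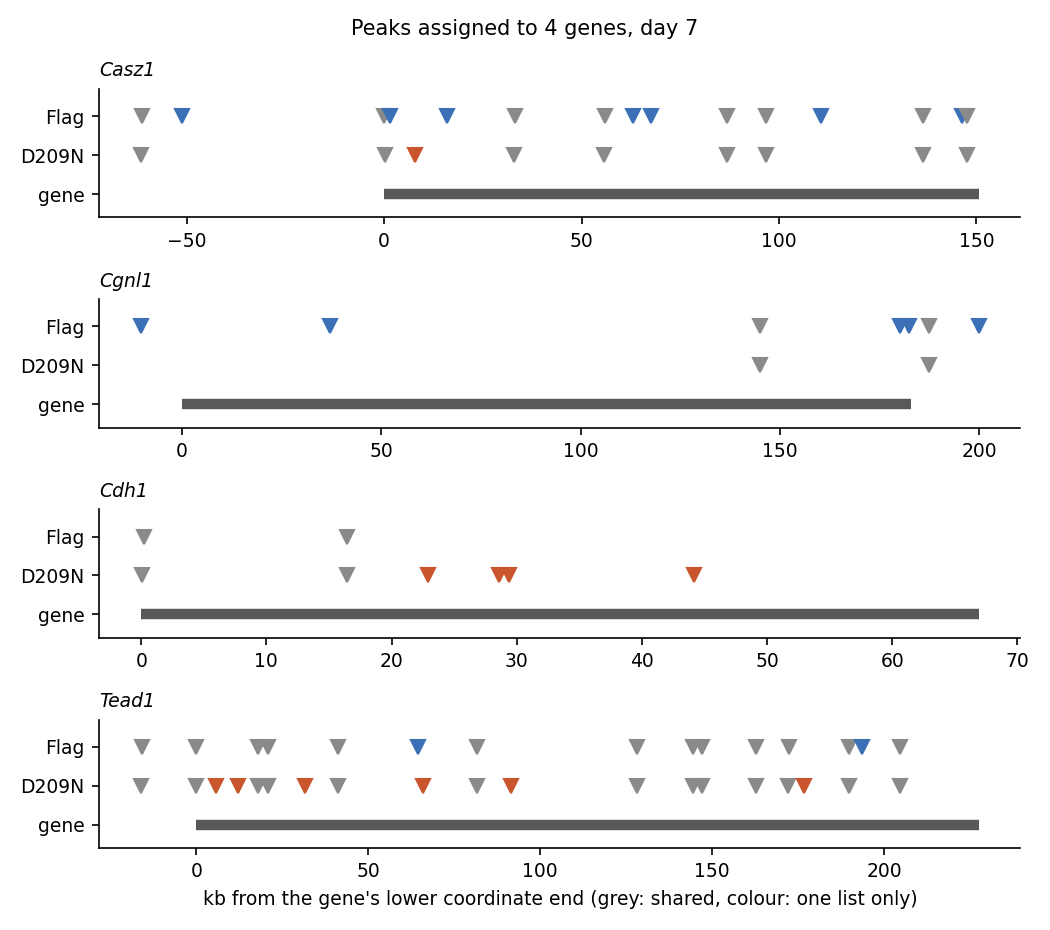
Peaks assigned to Casz1, Cgnl1, Cdh1 and Tead1 in the Flag and D209N day 7 lists, by distance in kb from the lower coordinate end of the gene, with the gene drawn as a bar and a separate scale in each panel. Grey triangles are shared peaks and coloured triangles are peaks in one list only. Casz1 has 7 Flag-only peaks and 1 D209N-only peak, Cgnl1 5 and 0, Cdh1 0 and 4, and Tead1 2 and 6.

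Mesenchymal genes had 21 Flag-only and 8 D209N-only assigned peaks, which are 22.3% and 10.0% of the peaks assigned to them in each list, against 17.2% and 12.9% over all coding genes. More Flag-only peaks were held by 10 of the 24 genes, more D209N-only peaks by 4, and 10 were equal. Zeb2, a repressor of E-cadherin, had 4 Flag-only and 1 D209N-only peaks, and Meox1, a homeobox factor, 3 and 0. Pdgfrb, a growth factor receptor of fibroblasts, went the other way with 0 and 2. Markers of some other cell types divided in the same direction. Endothelial markers had 9 Flag-only and 3 D209N-only assigned peaks (28.1% and 11.5% of their peaks), trophoblast markers 6 and 3 (24% and 13.6%), and keratinocyte and macrophage and blood markers 2 and 0 each. Neural markers had 4 and 6, endoderm markers 3 and 3 and muscle markers 0 and 1. The division was therefore not shown to be particular to mesenchymal genes. Runx2, the osteoblast regulator, had a Flag-only gene-end peak of 124 bp (chr17:44814930-44815053), 0.195 kb from the gene's outer end and present in the Flag day 3 list.

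Fibroblast matrix genes numbered 26, with a gene-end peak in both lists for 19, in each list only for 2 and in neither for 3. Over all coding genes the shares were 59.4% in both, 2.02% in Flag only and 0.973% in D209N only. Assigned one-list peaks numbered 15 in Flag and 10 in D209N. These are 17.2% and 12.5% of the peaks assigned to the list, close to the 17.2% and 12.9% over all coding genes. Col3a1, a fibrillar collagen of connective tissue, had a D209N-only peak of 406 bp (chr1:45311477-45311882), the nearest Flag peak being 1.96 kb away. Col6a1, a microfibrillar collagen, had a D209N-only peak of 251 bp (chr10:76726109-76726359), with a Flag peak 3.72 kb away. Both were in the D209N day 3 list and not in the Flag day 3 list. Postn, a matricellular protein, had a Flag-only peak of 268 bp (chr3:54358582-54358849), 551 bp before its start site. Loxl2, an enzyme that cross-links collagen, had a Flag-only peak of 416 bp (chr14:69608956-69609371) that was in the Flag day 3 list. With the window widened to 2.5 kb Col3a1 left its class, since a Flag peak then fell in the window.

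TEAD factors and their partners in the Hippo pathway, which control growth and adhesion genes, had gene-end peaks in both lists for 20 of 21 genes and in neither for Amotl1. Over all coding genes 59.4% had one in both lists. Their assigned one-list peaks were 11 in Flag and 19 in D209N, or 12.5% and 19.8% of the peaks assigned to them, against 17.2% and 12.9% over all coding genes. D209N-only peaks were more numerous at 7 genes, Flag-only at 4, and 10 were equal. Tead1, a TEAD transcription factor, held 6 of the 19, with widths of 207 to 370 bp, against 2 Flag-only peaks. Yap1, the co-activator of TEAD, had 0 Flag-only and 2 D209N-only peaks, as had Lats2, a kinase that restrains it. The target genes Ccn1 and Ccn2 had 1 and 0 Flag-only peaks and no D209N-only peak.

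Genes of R-loop processing had gene-end peaks in both lists for 25 of 26 members, against 59.4% of all coding genes. Rnaseh1 had 1 assigned peak in each list, and Ddx5, an RNA helicase, had a gene-end peak in both with no peak assigned to it. One-list peaks at these genes numbered 3 in Flag, at Aqr, Top1 and Srsf1, and 2 in D209N, both at the helicase gene Wrn. They made up 7.89% and 5.41% of the peaks assigned to the list, against 17.2% and 12.9% over all coding genes. AP-1 factors, the fibroblast enhancer regulators of the Fos and Jun families, had a gene-end peak in both lists for 11 of 12 genes and 4 Flag-only against 2 D209N-only peaks. Interferon and nucleic acid sensing genes had it in both lists for 21 of 24, with 7 against 3 one-list peaks. TGF-beta and BMP pathway genes had it in both for 29 of 31, with 30 against 24 one-list peaks.

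Of 30 Polycomb subunits 28 had a gene-end peak in both lists, and Bcor, a corepressor of a variant complex, had one in Flag only, of 211 bp (chrX:12159980-12160190). Bcor had 8 Flag-only assigned peaks of 138 to 570 bp and 3 D209N-only peaks, none of them in a day 3 list. Of 26 chromatin remodellers 24 had it in both lists. Smarcd3, a subunit of the BAF complex, had a Flag-only peak of 284 bp (chr5:24624364-24624647), and Chd3, a helicase of the NuRD complex, one of 446 bp (chr11:69368681-69369126). DNA methylation enzymes had it in both lists for 6 of 8, and p53 and senescence genes for 19 of 20. Of 12 neural markers 8 had it in both lists, and Neurod1 had a D209N-only peak of 197 bp (chr2:79456726-79456922). With the 2.5 kb window Bcor, Chd3, Neurod1 and Eras left the one-list classes. The gene-end peaks of Bcor, Smarcd3 and Neurod1 lay where the other list skipped a number. So did those given above for Zfp42, Nodal, Krt19, Runx2, Col6a1, Postn and Loxl2. At the peaks of Prdm14, Eras, Col3a1 and Chd3 the other list skipped none. Beside the 59.4% of all coding genes in both lists, 2.02% in Flag only and 0.973% in D209N only, these lists give counts of few genes.

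**Figure D5:**
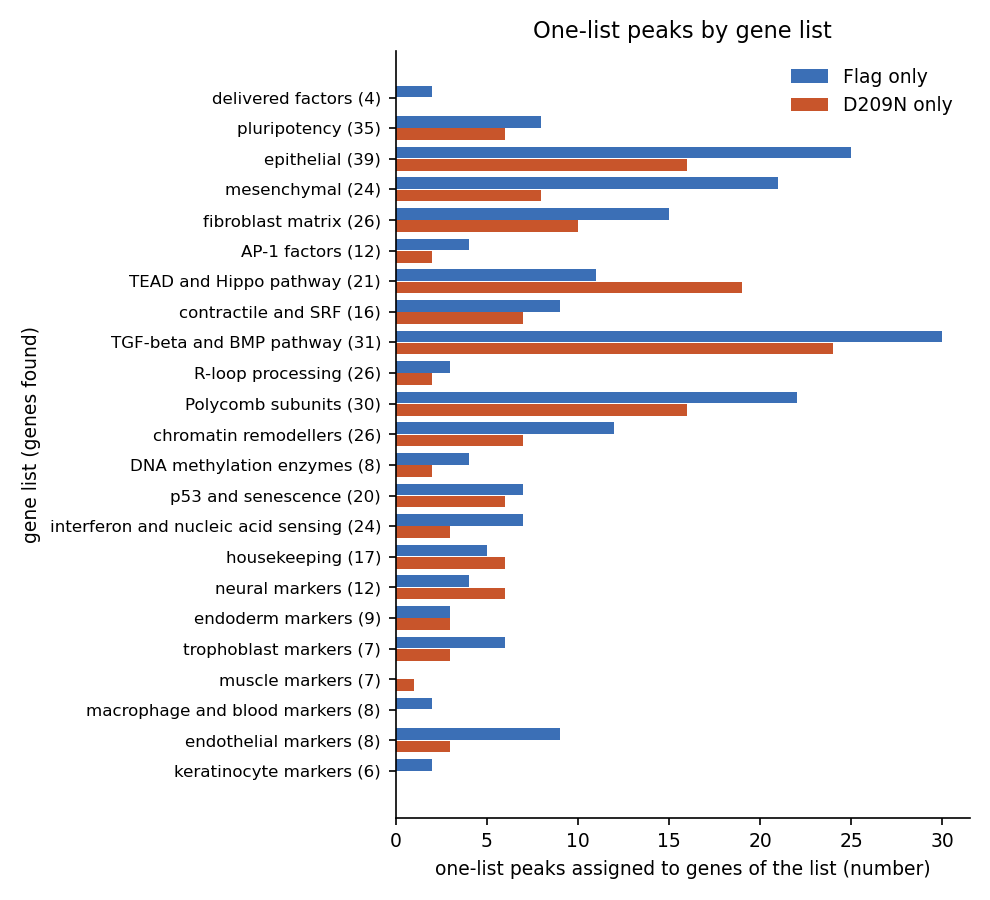
Number of Flag-only and D209N-only peaks assigned to the genes of each of 23 lists, with the number of genes found in parentheses. Flag-only peaks are more numerous in most lists, as over all coding genes, and D209N-only peaks in the TEAD and Hippo list with 19 against 11 and, by 1 or 2 peaks, in the neural, housekeeping and muscle lists.

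Over all coding genes, 6610 Flag-only and 4687 D209N-only peaks were assigned. More Flag-only than D209N-only peaks were assigned to 3680 genes (16.8%), and more D209N-only peaks to 2303 (10.5%). A net excess of at least 3 peaks was found at 182 genes (0.832%) for Flag and 75 (0.343%) for D209N, of at least 4 at 53 (0.242%) and 16 (0.0731%), and of at least 5 at 11 (0.0503%) and 2 (0.00914%). The genes named next were taken for having the most, so their counts are a description. Equal counts were ordered by fewer shared peaks, then by symbol. Of the 11 genes with a net excess of at least 5 for Flag, Bcor with 8 and 3 fell outside the 10 named, and of the 16 with at least 4 for D209N 6 did, among them Tead1 with 6 and 2. In Flag these were Slc23a2, a vitamin C transporter, with 6 Flag-only and 0 D209N-only peaks, Casz1, a zinc-finger transcription factor, with 7 and 1, and Rap1gap2, which inactivates the GTPase Rap1, with 6 and 0. Cgnl1, a junction protein, Chn2, a Rac regulator, and Tspan5, a tetraspanin, had 5 and 0 each. Pdlim5, a scaffold of the actin cytoskeleton, had 6 and 1. Arhgef10l, Med13l, a Mediator subunit, and Sh3pxd2a, a podosome scaffold, had 7 and 2 each. The Flag-only peaks of Casz1 were 104 to 513 bp wide, none was in either day 3 list, and all 7 lay where the D209N list skipped a number. Those of Cgnl1 were 239 to 284 bp wide, also all absent at day 3 and all 5 at a skipped number. At Pdlim5 3 of the 6 were in the Flag day 3 list, as were 3 of the 5 at Tspan5 and at Chn2. All Flag-only peaks of Slc23a2, Chn2 and Med13l also lay at a skipped number. At Rap1gap2, Pdlim5, Arhgef10l, Tspan5 and Sh3pxd2a most but not all did.

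In D209N the same rule gave Spink13, a protease inhibitor gene, with 7 D209N-only and 0 Flag-only peaks, and Tgfbr3, a co-receptor for TGF-beta ligands, with 5 and 0. Ephb2, an ephrin receptor, had 5 and 1. Cdh1, Lamb1, a laminin chain, Pabpc6, Grin2b, a glutamate receptor subunit, Ier5, an immediate early gene, Mpped2 and Tbc1d4, a Rab regulator, had 4 and 0 each. Spink13 peaks were 198 to 293 bp wide and 1 of the 7 was in the Flag day 3 list. The 5 peaks of Tgfbr3 were 32 to 459 bp wide and absent from both day 3 lists, as were the 5 of Ephb2. Each day 3 list held 2 of the 4 peaks at Lamb1, at Grin2b and at Mpped2. All 7 peaks at Spink13 and all 5 at Ephb2 lay where the Flag list skipped a number, as did 4 of the 5 at Tgfbr3. All 4 did so at Pabpc6, Grin2b, Mpped2 and Tbc1d4, and 3 of the 4 at Lamb1 and at Ier5. Counted within 20 kb of a gene end, the excess at 19 of these 20 genes was more than 1.5 times smaller or gone, and with the nearest gene body it stayed within 1.5 times at all 20.

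Single one-list peaks of large width were rare. After the Col24a1 peak of 888 bp, the widest in Flag were 841 bp at the end of the non-coding gene Gm46328 (chr12:54404448-54405288), 829 bp inside Mrnip (chr11:50196936-50197764), 818 bp at an end of Plekhg6 (chr6:125379909-125380726) and 817 bp at an end of Shfl (chr9:20868644-20869460). Shfl encodes an interferon-induced inhibitor of ribosomal frameshifting. Gbx1, a homeobox gene, followed at a gene end with 784 bp (chr5:24526245-24527028). In D209N the widest was 1244 bp between genes, 25.9 kb from Rcl1 (chr19:29074857-29076100), then 1124 bp inside Mmp28, a matrix metalloproteinase gene (chr11:83448087-83449210). Next came 1034 bp at the non-coding gene Gm40624 (chr10:38353669-38354702), 1022 bp inside Sh3bgrl2 (chr9:83596103-83597124) and 1014 bp inside Adgrd1, an adhesion receptor gene (chr5:129123865-129124878). At gene ends Gm11228 had 867 bp, Kcnh5, a potassium channel gene, 771 bp, Anxa1, an anti-inflammatory annexin gene, 747 bp and Pycard, an inflammasome adaptor gene, 745 bp.

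One-list regions mostly stood alone among neighbours of other classes. Neighbouring regions of 1 class at most 50 kb apart formed a run. Of Flag-only regions 76.6% stood alone and 4.18% lay in the 97 runs of 3 or more. Of D209N-only regions 83.2% stood alone and 2.55% lay in the 46 runs of 3 or more, while 60.5% of shared regions lay in such runs. A rarer class forms fewer runs from its frequency alone. Shared regions were 72.5% of all, Flag-only regions 15.7% and D209N-only regions 11.8%, so these shares are a description. The longest Flag-only runs had 5 regions, of which the first lay over 108.9 kb at chr2:75029291-75138186 with Mtx2 the nearest coding gene, 207 kb away. The second lay over 60.9 kb near Lctl (chr9:64060216-64121093). The third lay over 58.3 kb from Wnt4, a signalling ligand, to Cdc42, a GTPase of cell polarity (chr4:137287351-137345682), with no region in a day 3 list. The longest D209N-only run had 6 regions over 76.8 kb at Spink13 (chr18:62728261-62805016). Runs of 4 followed at Tgfbr3 (chr5:107088268-107148490), Ccdc182 (chr11:88280576-88331059) and Cdh1.

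One-list peaks of day 7 were mostly absent at day 3. The day 3 lists held 36375 peaks in Flag and 29189 in D209N, so overlap with the Flag list is more likely from its size alone. Of Flag-only peaks 20.3% (19.5 to 21.3) were in the Flag day 3 list and 13.4% (12.7 to 14.2) in the D209N day 3 list. Of D209N-only peaks 28.96% (27.8 to 30.2) were in the Flag day 3 list and 18.98% (18.0 to 20.02) in the D209N day 3 list. Thus 75.5% of Flag-only and 67.0% of D209N-only peaks were in neither, against 20.9% of shared Flag peaks. D209N-only peaks were in each day 3 list more often than Flag-only peaks, by more than counting error. Those in both day 3 lists numbered 845 and lay at a gene end in 8.99%.

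LncRNA genes and pseudogenes with a gene-end peak lacked one in the other list more often than coding genes did. Among genes with a gene-end peak in a list, the share without one in the other list was 3.29% in Flag and 1.61% in D209N for coding genes, 9.16% and 7.34% for lncRNA genes, and 23.2% and 16.4% for pseudogenes. Of 12727 lncRNA genes 317 (2.49%) were Flag only and 249 (1.96%) D209N only, and of 9944 pseudogenes 83 (0.835%) and 54 (0.543%). Over all coding genes the shares were 2.02% and 0.973%, so pseudogenes lay below coding genes by this count. Transfer RNA genes, which are short, highly transcribed and often near-identical copies, were D209N only more often than Flag only. Of 408, 243 had a gene-end peak in both lists, 1 in Flag only (0.245%) and 10 in D209N only (2.45%). The 10 genes shared 8 distinct peaks of 103 to 467 bp, of which 7 were in the Flag day 3 list, 5 in the D209N day 3 list, and 5 at a place where the Flag day 7 list skipped no number. One peak of 467 bp on chromosome 13 (chr13:23500539-23501005) stood at n-TMcat5, n-TRacg4 and n-TSaga7 together. Reads of near-identical copies may be assigned to more than 1 place, so these genes are uncertain.

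MicroRNA genes are shown with their mature sequences because their seeds show which of the hairpins below yield the same microRNA. Of 1005 hairpins in RefSeq's table, 152 had a peak within 1 kb in both lists, 17 were Flag only (1.69%) and 14 were D209N only (1.39%), with 3 of the latter called through the edge of a shared peak. Mir9-2 on chromosome 13 and Mir9-3 on chromosome 7 were both Flag only, with peaks of 245 bp (chr13:83737928-83738172) and 372 bp (chr7:79504829-79505200), and they encode the same 2 mature microRNAs of neural cells. Capitals mark the seed, bases 2 to 8.
mmu-miR-9-5p: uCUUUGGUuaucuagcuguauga
mmu-miR-9-3p: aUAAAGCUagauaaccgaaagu
Among D209N-only hairpins were Mir30a with a peak of 251 bp (chr1:23271128-23271378), Mir137 with 362 bp over the hairpin (chr3:118433677-118434038), Mir125b-1 with 477 bp (chr9:41580595-41581071) and Mir129-2 with 221 bp (chr2:94241688-94241908). Their mature sequences carry 4 different seeds.
mmu-miR-30a-5p: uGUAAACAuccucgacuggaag
mmu-miR-137-3p: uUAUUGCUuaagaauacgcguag
mmu-miR-125b-5p: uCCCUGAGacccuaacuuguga
mmu-miR-129-5p: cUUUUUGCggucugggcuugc
The peak at Mir125b-1 was in both day 3 lists, that at Mir9-2 in the Flag day 3 list, and the others named here in neither. The miR-290 and miR-302 clusters of pluripotent cells, the miR-200 clusters of epithelia and Mir34a, a p53 target, had no peak within 1 kb in either list. Mir34b and Mir34c had one in both.

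Promoter sequence differed between the classes of promoter. RefSeq's table gives 21237 windows of 300 bases for coding genes, 250 before and 50 after a start site. Of these 11755 overlapped a peak in both lists, 391 (1.84%) in Flag only, 257 (1.21%) in D209N only and 8834 in neither. Median GC content was 62.7% for both lists, 58.0% for Flag only, 56.3% for D209N only and 47.7% for neither, and the median number of CpG was 22, 12, 10 and 3. The SP letters GGGCGGG were in 52.4% of windows with a peak in both lists, 36.1% of Flag-only, 28.4% of D209N-only and 9.23% of windows with a peak in neither, against 33.9% of all windows. The ETS letters CCGGAAG were in 18.7%, 5.37%, 5.45% and 2.49%, against 11.6% of all. The AP-1 letters TGANTCA were in 4.25% of windows with a peak in both lists but in 12.3% (9.39 to 15.9) of Flag-only, 10.1% (7.00 to 14.4) of D209N-only and 10.3% of windows with a peak in neither, against 6.99% of all. In GC content, CpG number and these 3 motifs the one-list classes lay nearer to each other than either lay to the windows with a peak in both lists.

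The other 5 motifs did not have this order. The octamer letters ATGCAAA were in 3.29% of windows with a peak in both lists, 3.84% (2.34 to 6.23) of Flag-only and 6.61% (4.17 to 10.3) of D209N-only windows, against 4.24% of all. The RUNX letters TGTGGTT were in 2.97%, 2.05% (1.04 to 3.98) and 5.84% (3.57 to 9.41), against 4.71% of all. The KLF letters GGGTGTG were in 8.05%, 10.5% (7.82 to 13.9) and 7.39% (4.78 to 11.3), against 8.03% of all. For these motifs, and for the 2 that follow, the intervals of the one-list classes overlapped. The SOX letters CCATTGT were in 1.74%, 1.79% (0.870 to 3.65) and 2.33% (1.07 to 5.00), against 2.92% of all. The TEAD letters GGAATG were in 11.1%, 13.3% (10.3 to 17.0) and 15.6% (11.6 to 20.5), against 13.6% of all. By point values, in each of the 5 a one-list class lay nearer to the windows with a peak in both lists than to the other one-list class. For TEAD the Flag-only value lay almost midway, and SOX rested on 7 Flag-only and 6 D209N-only windows. With overlapping intervals this order was not shown to exceed counting error. All motifs were searched on both strands, and a window was counted once.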

How the data were processed

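The 2 ATAC-seq peak lists of day 7 were compared, 1 for each group, and the 2 day 3 lists were used only to describe the earlier state of each class. The authors deposited, per the file headers and contents, peak coordinates and names with no signal, score or count, so the only measure is the position and width of a peak in base pairs. Per the submitters' processing notes, the builds were mm10 and GRCm38.p5 and the tools were CASAVA and Bowtie2 2.3.2. Not given in the sources used here are which program called peaks, at what threshold, whether reads were shifted for the transposase and how 2 replicates became 1 list. Every peak name carries rep1, so a list may hold the peaks of replicate 1 only. Read depth is unknown, so a list from a shallower library cannot be told apart from a less accessible group.

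Overlap, gene position, runs and width pairs were computed with Python 3.11.15, numpy 2.4.6, pandas 2.3.3 and scipy 1.17.1. The overlap was tested on simulated lists cut from the real peaks and compared with bedtools. Gene ends came from RefSeq's GRCm38.p6 gene table, and start sites from its promoter table, which holds 17491 of the 21883 coding genes. Of 419 listed genes 416 were found. Members, gene lists and rules were chosen with earlier results of these data known. Genes were named by 5 rules: list members with a gene-end peak in one list only, the 10 coding genes per group with most net one-list peaks, the widest one-list peaks and longest runs, the delivered factors with examples of each list, and the most unequal width pairs. Other genes were chosen after their values were seen, namely the assigned-peak examples of the epithelial, mesenchymal, TEAD and R-loop lists, the transfer RNA genes, the microRNAs and the gene families. Motif matches were counted separately for each motif, also where motifs overlap. Alternatives changed the overlap rule, the widths kept, the window, the assignment and the run distance. RNA-seq, R-loop and CLIP-seq samples were not used here.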

Additional observations from a re-analysis of the deposited data

How the results depend on the processing

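Every value rests on 1 list per group with unknown depth. Leaving out a replicate was not run for want of a list per replicate, and the base composition of peak centres was not run because no genome sequence was used here. No paired analysis was possible because each group has 1 list, whose peak names carry rep1, for its 2 replicates.

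The ratio of Flag-only to D209N-only peaks turned below 1 under 4 settings: 0.876 with peaks above the median width in both lists (2704 and 3088 peaks), 0.871 with that width asked only of the holding list (269 and 309), 0.991 with the widest peaks to the shorter length, and 0.943 with no missing number in the other list (1980 and 2100). Lists cut to equal length give a ratio near 1 by that rule, so 0.991 does not bear on the balance of the groups. With the width cut in both lists, a peak whose partner was narrower than the cut also counts as one-list. The percent shared moved, for Flag and D209N, to 81.1 and 84.8 with 50% of the narrower peak in common, 80.4 and 84.3 with centres within 250 bp, 83.3 and 87.1 with the other list extended by 500 bp, 86.8 and 85.2 above the median width in both lists, 98.7 and 98.5 with the width asked of the holding list only, and 84.5 and 84.4 with the widest peaks to the shorter length.

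The percent at a gene end, for shared Flag, Flag-only and D209N-only peaks, was 37.9, 10.7 and 9.32 with a 500 bp window, 50.4, 27.2 and 24.8 with 2.5 kb, 58.5, 27.5 and 19.4 above the median width, and 35.5, 10.2 and 7.85 with coding genes only, so the order of the 3 classes held. The percent over 100 kb from a coding gene end was 6.04 for shared Flag and 13.8 for Flag-only peaks above the median width, and 9.44 for Flag-only and 13.9 for D209N-only peaks with no missing number. Gene-end peaks above the median width in both lists gave 449 D209N-only genes and a ratio of 1.07, which includes genes whose peak in the other list was below the cut. A net excess of at least 3 peaks was held by 51 Flag and 13 D209N genes within 20 kb. Runs of 3 or more numbered 53 in Flag and 24 in D209N with neighbours within 20 kb, and 155 and 84 with no limit. With 50% of the narrower peak in common, 19.02% and 12.4% of Flag-only peaks were in the Flag and D209N day 3 lists, and 27.1% and 17.7% of D209N-only peaks. Above the median width, 77.7% of Flag-only and 67.6% of D209N-only peaks lay at a missing number. The settings on missing numbers, on the width of the holding list, and on width for distances and gene-end genes were chosen after seeing the data. The cause of these shifts was not tested.

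Over all results of the comparisons, 44 of 96 alternative values stayed within the main value's interval or within 1.5 times of it, 48 moved and 4 reversed. Of the 16 list members with a gene-end peak in one list, 13 kept their class with a 500 bp window and 9 with 2.5 kb.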

Other observations

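Gene families outside the lists were read after their values had been seen, and are given as counts only, beside a background over all coding genes of 2.02% for Flag alone and 0.973% for D209N alone. Of 19 Wnt ligand genes, the gene-end peak was in Flag only for Wnt1, Wnt3 and Wnt11 and in D209N only for Wnt5a, with Wnt7b in D209N only through the edge of a shared peak. Of 22 Fgf ligand genes, Fgf12, Fgf17 and Fgf23 were in Flag only and Fgf21, a metabolic hormone, in D209N only. Of 8 Lhx homeobox genes Lhx5 and Lhx6 were in Flag only, and of 39 Hox genes Hoxa7 and Hoxb2 were in Flag only, with none in D209N only in either family. Neurod4 and Neurod6 were in Flag only, beside Neurod1 in D209N only. Of 44 collagen genes Col11a2 and Col24a1 were in Flag only, and Col3a1, Col5a3 and Col6a1 in D209N only.

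Among interferon-induced families, Oas2 and Oas3, which sense double-stranded RNA, were in Flag only, with 5 of 11 Oas genes in both lists. Gbp5, a guanylate-binding protein gene, was in D209N only, and so was Gbp2b through the edge of a shared peak, with 5 of 10 Gbp genes in both lists. Pax7, a regulator of muscle stem cells, and Tbx4, a limb regulator, were in D209N only, and Tbx1 in Flag only.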
